A study of Mus musculus with 6 samples.

Results

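The comparison is between 2 mouse cancer cell lines, AE17 and LLC. The AE17 line came from a malignant mesothelioma, a tumour of the lining of the body cavities, and LLC from Lewis lung carcinoma. Of the 6 arrays in the series, 4 were used, the 2 whose cell line label is AE17 and the 2 whose label is LLC. Their labels chose them, with no measured value involved. The third line, MC38 from a colon adenocarcinoma, shaped the normalization of the arrays and is compared with neither line; it entered 1 alternative fit, for the spread only.

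The series set lines carrying a hairpin against Spp1 beside their controls, with each line measured once under the label sh Ctrl and once under sh Spp1. A short hairpin RNA lowers the message it matches, and Spp1 encodes the secreted matrix protein osteopontin. The genotype label reads wild type for the sh Ctrl cultures and Spp1 depletion for the sh Spp1 cultures, and does not say whether the control cells carried a control hairpin. All 4 cultures grew in DMEM with 10% fetal bovine serum at 37 °C in 5% CO2, and biotin-labelled RNA from each was hybridised to a 1-colour whole-transcript array. The labels do not say whether a line with a hairpin is 1 clone, and name no repeat culture of any of the 4 conditions. The 2 arrays of a line are therefore 2 different conditions, and the spread within a line holds the shRNA label, the culture and the array together. No probe set with 1 gene symbol names Spp1 in the table used here, so the depletion was not checked.

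Tumour lines of different origin can keep part of the programme of the tissue they came from, and add changes of their own in cell cycle, stress and immune genes. Interferons are secreted signals that turn on antiviral genes through receptors, the kinases Jak1 and Tyk2 and transcription factors of the IRF family among others. Many interferon-induced genes carry a promoter element built from repeats of GAAA. The tumour suppressor p53 turns on genes of growth arrest and cell death, Hox genes mark position along the body axis, and imprinted genes are read from only 1 parental copy.

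Levels are log2 intensities after quantile normalization, 1 unit is a doubling, and the dimmest 30% of probe sets lay below 4.49, a level called the floor. In every pair of values for a line the sh Ctrl array comes first and the sh Spp1 array second. The gap of a gene is the lowest array of the higher line minus the highest array of the lower line, and is 0 where the lines overlap. It carries a minus sign where LLC is higher. Differences are AE17 minus LLC, given with the standard error of the limma fit (4 arrays, shRNA label as a covariate).

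The 2 AE17 arrays stood apart from each other. Across 41345 probe sets they correlated at r = 0.939, less than either did with the LLC arrays (0.943 to 0.954), while the 2 LLC arrays correlated at 0.979. The AE17 arrays lay at least 2-fold apart for 3138 of 16845 genes, and the LLC arrays for 578. For that reason most genes below are given on all 4 arrays, others by their gap, and most lists also for the sh Ctrl pair and the sh Spp1 pair.

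No gene passed limma at an adjusted p of 0.05: 0 of 16845 were called higher in AE17 (0%) and 0 higher in LLC (0%), with a smallest adjusted p of 0.312. Before adjustment 1402 genes had p under 0.05. The fit has 1 residual degree of freedom per gene. Without the AE17 sh Ctrl array 1142 genes were called higher in AE17 and 526 higher in LLC, and without the AE17 sh Spp1 array 535 and 311. Fits with an array left out had no shRNA term. In those without an AE17 array the spread comes from the LLC pair, its shRNA difference included, and the lone AE17 array is assumed to vary like it. The line difference there also holds part of the shRNA label. Leaving out either LLC array gave 0 calls in both directions. What follows therefore describes which arrays did or did not overlap, with 2 arrays a line.

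Both AE17 arrays lay above both LLC arrays for 4418 genes (26.2%) and below them for 2586 (15.4%). The remaining 9841 genes overlapped. The lines were apart by a gap of at least 1 for 242 genes with AE17 higher (1.44%) and for 96 with LLC higher (0.57%), and by at least 2 for 46 and 21. This balance depended on the scaling. On the values as deposited the median difference of all genes was -0.56, against 0.09 after quantile normalization, and a gap of at least 1 was reached by 49 genes with AE17 higher and 779 with LLC higher. Signs below are therefore relative to a typical gene. At the edge of the threshold, Pet100 and Il13ra1 had gaps of 1.0021 and 1.0063, and Eid3 and Snhg1 gaps of -1.0035 and -1.0047. Just outside it, Plxdc1 and Prss23 lay at 0.9999 and 0.9997, and Dyrk3 and Kcnq5 at -0.9997 and -0.9959.

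The widest gap with AE17 higher belonged to Zdhhc15, an enzyme that attaches palmitate to proteins. Its level was 7.88 and 7.82 in AE17 and 3.66 and 3.34 in LLC, where both arrays were under the floor. Taking LLC at the floor, Zdhhc15 was at least 10.3-fold higher in AE17. The double-stranded RNA receptor Tlr3 stood at 8.78 and 8.10 against 4.94 and 4.27, a gap of 3.16. Sprr1a, a protein of the cornified envelope that stressed epithelial cells also make, stood at 8.41 and 9.10 against 5.30 and 5.13. Acta2, the smooth muscle actin of contractile fibroblasts, was bright in both lines, at 11.43 and 12.15 in AE17 and 8.43 and 7.62 in LLC, and had a difference of 3.77 ± 0.47. These genes were chosen by their gap, so the arrays of the 2 lines could not overlap for any of them.

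A pair of small heat shock proteins was also among the 15 widest gaps. Cryab, the lens and muscle chaperone, had 8.21 and 11.13 in AE17 and 5.02 and 5.24 on the LLC arrays, and Hspb1 had 7.66 and 9.22 against 4.87 and 4.83. For both, the LLC arrays lay close together and the AE17 sh Spp1 array above the AE17 sh Ctrl array. The glycosyltransferase-like gene Glt8d2 (8.06 and 7.87 against 5.08 and 4.91), the surface protein gene Plet1 (9.68 and 9.09 against 6.41 and 5.79), the mitochondrial carbonic anhydrase Car5b (9.44 and 9.76 against 6.73 and 5.37) and the B-cell adaptor Blnk (8.45 and 8.98 against 5.80 and 5.05) were high on both AE17 arrays. Their gaps ran from 2.65 for Blnk to 2.79 for Glt8d2.

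The widest gap of all was in the other direction, at Grb10, an imprinted adaptor that restrains insulin and growth factor receptor signalling. Grb10 stood at 4.60 and 4.18 in AE17, close to the floor, and at 9.09 and 10.06 in LLC. It was at least 32.6-fold higher in LLC, with a difference of -5.19 ± 0.44 and a limma adjusted p of 0.312. Krt18, a keratin of simple epithelia and mesothelium, followed with 5.01 and 4.67 in AE17 and 8.75 and 9.62 in LLC. Its usual partner Krt8 did not follow that order: it stood at 11.08 and 6.47 in AE17 and 8.88 and 8.31 in LLC, so the LLC arrays lay between the AE17 arrays.

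Other genes with wide gaps towards LLC were Ctsc, the lysosomal protease that activates granule proteases (4.36 and 4.05 against 7.60 and 7.77), Grem1, a secreted inhibitor of bone morphogenetic proteins (5.93 and 5.28 against 9.65 and 9.13), and Peg3, an imprinted zinc finger gene (5.66 and 5.21 against 10.39 and 8.85). The guidance molecules Sema6d and Sema5a had gaps of -2.78 and -2.71. Efemp1, a matrix glycoprotein of mesothelium, had 6.35 and 5.50 in AE17 and 9.13 and 9.06 in LLC. Neat1, the long RNA that builds nuclear paraspeckles, was bright in both lines, at 8.26 and 7.67 and 11.16 and 10.89. Further members of the 15 were Ak5, Eid2, Adcyap1r1, Ndst3, Pcdhga10 and Tenm4, with gaps between -3.18 and -2.65. LLC arrays of these genes stayed at or above 6.72, the lowest being Eid2 on the sh Ctrl array.

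**Figure D1:**
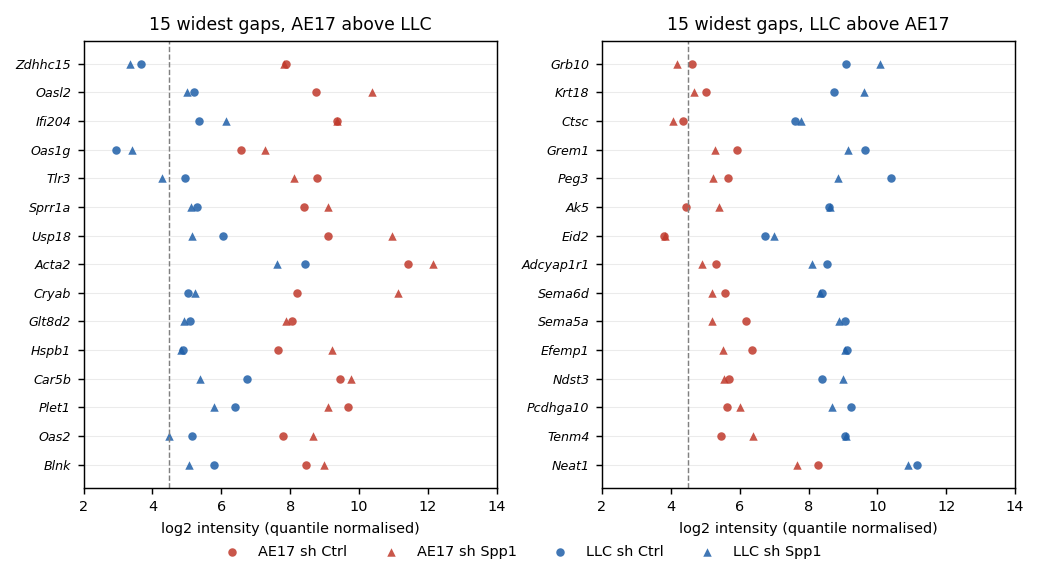
Log2 intensity of the 15 genes with the widest gap in each direction, 1 point per array (red AE17, blue LLC; circles sh Ctrl, triangles sh Spp1; dashed line the floor of 4.49). Genes were chosen by their gap, so none shown has overlapping lines. Zdhhc15 heads the left panel with a gap of 4.16 and Grb10 the right panel with -4.48.

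A stricter count asked for genes at least 2 units above the floor on both arrays of a line and under the floor on both arrays of the other. There were 4 such genes on in AE17 (0.0237% of those tested) and 2 on in LLC (0.0119%). Because these counts are small the genes are named here after their values were seen. The AE17 genes were Zdhhc15, the oligoadenylate synthetase Oas1g (6.58 and 7.27 against 2.94 and 3.41), the adipokine gene C1qtnf3 (10.01 and 6.67 against 4.30 and 3.78) and the lipase Liph (6.81 and 7.14 against 4.43 and 3.38). On the values as deposited the count for AE17 was 1. The LLC genes were Ctsc and the EP300 inhibitor Eid2 (3.81 and 3.84 against 6.72 and 7.0).

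Genes induced by interferon were higher in AE17 as a group. Of 67 listed genes 53 were tested, and both AE17 arrays lay above both LLC arrays for 47 (88.7%, against 26.2% of all genes) and below for 0. A gap of at least 1 was reached by 32 of the 53, against 1.44% of all genes. The median difference was 1.97, against 0.09 for all genes, with 1.50 in the sh Ctrl pair and 2.74 in the sh Spp1 pair. Relative to all genes it stayed between 1.50 and 2.64 over the scalings, filters and left-out arrays, and on the values as deposited it was 1.90. Within AE17 the list was higher on the sh Spp1 array, by a median of 1.04, and within LLC that difference was -0.21. No member passed limma. Members named below beyond the widest gaps were chosen after their values were seen.

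The promoters of 4 members are shown, those with the widest gaps among the 13 members that reached a gap of at least 1 and carried the GAAA repeat in the gene start region. The sequences are from RefSeq on GRCm38.p6, run from 250 bases before to 50 bases after the gene start, and are written 5′ to 3′ on the gene's strand. Capitals mark matches to GAAANNGAAA or to its reverse complement TTTCNNTTTC. Oas1g holds 2 matches that overlap each other. The 13 are not all the carriers, since 21 of the 40 members with a promoter sequence held a match. Ifit3 and Ifitm3, whose lines overlapped, held 2 matches each. Oasl2 and Irf7, with gaps of 3.54 and 2.59, held 0.

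Oas1g promoter, chr5:120887564-120887863, minus strand: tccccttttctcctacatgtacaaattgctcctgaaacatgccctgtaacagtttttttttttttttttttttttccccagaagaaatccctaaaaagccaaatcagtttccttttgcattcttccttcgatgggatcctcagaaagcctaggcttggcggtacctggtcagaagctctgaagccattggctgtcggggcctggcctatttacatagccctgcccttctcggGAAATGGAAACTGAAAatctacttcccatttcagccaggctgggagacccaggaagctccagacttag
Rsad2 promoter, chr12:26456403-26456702, minus strand: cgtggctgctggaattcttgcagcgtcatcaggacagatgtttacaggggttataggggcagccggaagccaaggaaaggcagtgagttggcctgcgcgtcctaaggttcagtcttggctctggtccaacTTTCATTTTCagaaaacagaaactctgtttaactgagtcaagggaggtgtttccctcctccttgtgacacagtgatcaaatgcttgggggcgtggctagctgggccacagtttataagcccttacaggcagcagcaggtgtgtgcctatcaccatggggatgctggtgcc
Irgm2 promoter, chr11:58214727-58215026, plus strand: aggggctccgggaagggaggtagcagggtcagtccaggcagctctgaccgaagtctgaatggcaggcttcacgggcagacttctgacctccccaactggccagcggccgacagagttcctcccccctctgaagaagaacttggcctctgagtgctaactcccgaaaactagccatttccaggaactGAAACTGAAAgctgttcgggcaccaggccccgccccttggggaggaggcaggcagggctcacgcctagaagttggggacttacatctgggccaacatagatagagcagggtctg
Igtp promoter, chr11:58199306-58199605, plus strand: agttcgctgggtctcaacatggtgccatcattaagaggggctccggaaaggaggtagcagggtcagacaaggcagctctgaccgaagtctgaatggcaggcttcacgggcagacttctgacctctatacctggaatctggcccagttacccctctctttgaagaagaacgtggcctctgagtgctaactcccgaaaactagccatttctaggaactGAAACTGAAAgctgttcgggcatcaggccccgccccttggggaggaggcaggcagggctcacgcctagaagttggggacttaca

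Matches to either form of the motif were counted in all such promoters. A gene with several promoters counted once. Of 53 tested interferon genes 40 had a promoter sequence, and 21 of those (52.5%) held at least 1 match. Of all tested genes 12998 had a sequence, and 441 of those (3.39%) held a match. Among the 242 genes with a gap of at least 1 and AE17 higher, 184 had a sequence and 27 (14.7%) held a match. Outside the interferon list it was 14 of 160 (8.75%). Of the genes with LLC higher by that gap, 2 of 67 (2.99%) held one. The interferon promoters had a median GC content of 53% and a ratio of observed to expected CpG of 0.264, against 59.3% and 0.689 for all genes. A match is a description of letters and was not tested as a binding site. Whether it goes with the gap within the interferon list was not tested either.

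Among the antiviral genes, the oligoadenylate synthetase (Oas) family and its Oasl relatives were higher on both AE17 arrays for each listed member tested. Oasl2 stood at 8.74 and 10.39 in AE17 and 5.20 and 5.0 in LLC, a difference of 4.46 ± 0.53. Oas2 stood at 7.80 and 8.66 against 5.16 and 4.47, and Oas1b, Oas3 and Oasl1 had gaps of 2.03, 1.50 and 1.55. Oas1g, whose promoter heads the sequences shown, was at least 5.4-fold higher in AE17. Oas genes have near-identical copies, so probe sets may share signal between them.

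Effectors followed the same order. Rsad2, the antiviral enzyme viperin, had 7.62 and 10.20 in AE17 and 5.46 and 4.83 on the LLC arrays, and its neighbour in function Cmpk2 had 7.0 and 10.85 against 5.20 and 4.99. Usp18, the protease that removes ISG15 from proteins and damps receptor signalling, had 9.09 and 10.97 against 6.06 and 5.15, and Isg15 itself 5.21 and 6.87 against 4.17 and 4.13. Ifit1, which binds foreign RNA caps, had 6.80 and 9.42 against 4.80 and 4.73, a gap of 2.0. In each of these the AE17 sh Spp1 array was the highest of the 4.

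The nuclear DNA sensor gene Ifi204 differed from that pattern in AE17. It stood at 9.37 and 9.37 on the 2 AE17 arrays and at 5.36 and 6.13 on the LLC arrays, a difference of 3.62 ± 0.34. Ifi27 (10.31 and 9.92 against 7.60 and 7.25) and Bst2, the tether of budding viruses (8.48 and 7.96 against 6.27 and 6.40), were also close on the AE17 arrays. Immunity-related GTPases, which attack the vacuoles of parasites, included Irgm2 (7.65 and 8.21 against 5.49 and 4.18) and Igtp (7.41 and 9.45 against 5.39 and 5.28), while Irgm1 had a gap of 0.01 only.

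Of the transcription factors and sensors, Irf7 had 7.89 and 9.07 in AE17 and 5.24 and 5.30 in LLC. Stat2 had 8.56 and 8.73 against 6.63 and 6.54, and Irf9 7.85 and 8.80 against 6.37 and 6.48. The RNA sensor genes Ddx58 and Ifih1 had 9.51 and 10.54 against 8.01 and 8.37 and 6.75 and 8.83 against 4.96 and 4.34. The lines did not overlap for any of the 5, and within AE17 Stat2 varied least.

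Receptor and adaptor genes, added after the list had been seen, did not share the size of these gaps. Ifnar1 had 9.58 and 9.59 in AE17 and 9.27 and 8.80 on the LLC arrays, and Jak1 11.32 and 11.11 against 10.82 and 10.68, with gaps of 0.31 and 0.29. Ifnar2 (9.21 and 10.04 against 9.39 and 9.55), Irf3 (7.45 and 7.58 against 7.48 and 7.16) and the adaptor Mavs (9.88 and 9.30 against 9.55 and 9.31) overlapped. The list's own exceptions were Ifit2, Ifit3, Isg20, Ifitm3, Trim25 and Mx2, whose lines overlapped. Ifit3 stood at 6.64 and 6.40 against 6.55 and 6.66 and Ifitm3 at 11.69 and 12.47 against 11.94 and 11.84.

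**Figure D2:**
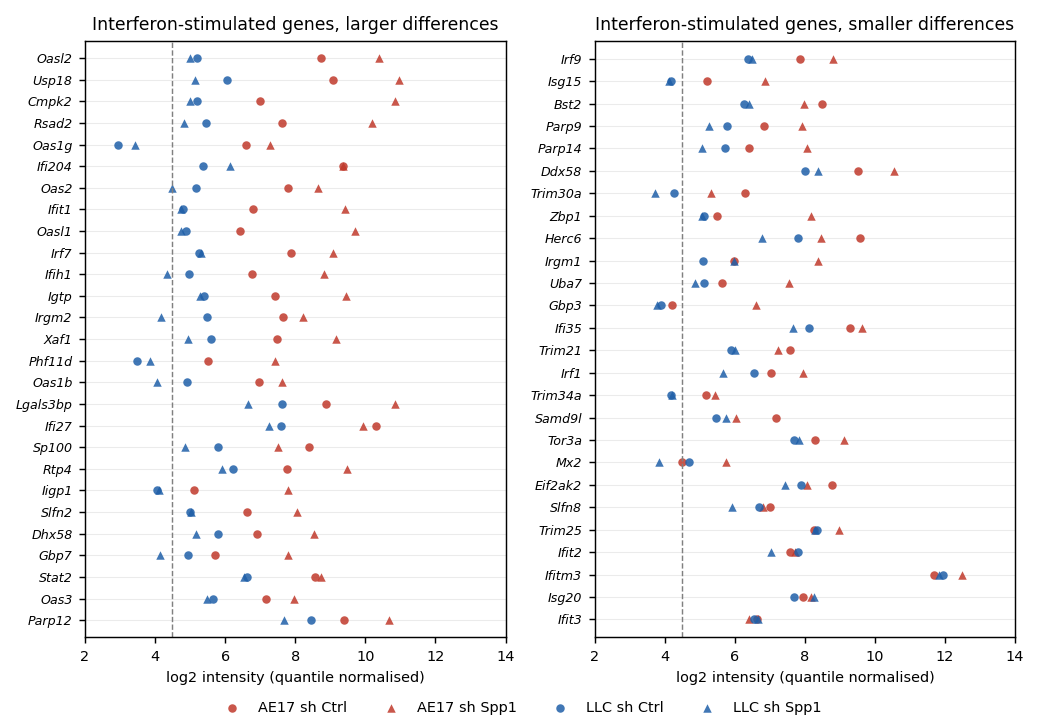
Log2 intensity of the 53 tested interferon-stimulated genes, ordered by the AE17 minus LLC difference, 1 point per array (red AE17, blue LLC; circles sh Ctrl, triangles sh Spp1; dashed line the floor). In 47 genes both red points lie to the right of both blue points, and the AE17 sh Spp1 array is often the farthest right.

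Part of the machinery of MHC class I presentation is also induced by interferon. Both AE17 arrays lay above both LLC arrays for 13 of its 23 tested members (56.5%) and below for 1 (4.35%), against 26.2% and 15.4% of all genes. The immunoproteasome subunit Psmb9 had 6.99 and 7.0 in AE17 and 4.91 and 5.38 on the LLC arrays, and Psmb8 6.95 and 7.91 against 5.97 and 5.58. H2-K1, a classical class I heavy chain, had 9.81 and 11.16 against 8.44 and 9.24, and its light chain B2m 13.15 and 13.33 against 12.93 and 12.90. The median difference of the list was 0.69 (0.53 in the sh Ctrl pair and 0.60 in the sh Spp1 pair), with 0.41 without the AE17 sh Spp1 array and 0.39 without the LLC sh Ctrl array. On the values as deposited it was 0.00, or 0.56 above all genes. Centring the arrays on their medians left 6 members above (26.1%) and 2 below (8.7%), near the 21.3% and 9.68% of all genes under that scaling. Class I genes have close copies whose signal probe sets may share.

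Targets of p53 went the other way. Of 23 tested members both AE17 arrays lay below both LLC arrays for 10 (43.5%, against 15.4% of all genes) and above for 2. The median difference was -0.88, with -0.71 in the sh Ctrl pair and -0.82 in the sh Spp1 pair. It was -0.36 without the AE17 sh Ctrl array and -0.39 without the LLC sh Spp1 array. On the values as deposited it was -1.43, or -0.87 relative to all genes.

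Eda2r, a death receptor of the TNF family, had the widest gap of the list, with 4.80 and 6.51 in AE17 and 7.79 and 9.47 in LLC. Aen, a nuclease active in cell death, had 6.39 and 6.37 against 7.64 and 8.43, and Zmat3, an RNA-binding target, 7.31 and 8.48 against 9.66 and 10.51. Mdm2, the ligase that degrades p53, had 8.60 and 8.47 against 9.59 and 10.30, and cyclin G1 (Ccng1) 11.06 and 11.06 against 11.99 and 12.42. The cell death genes Pmaip1 and Bbc3 had narrower gaps, at -0.50 and -0.31. Cdkn1a, the cell cycle inhibitor p21, overlapped, with 10.12 and 11.33 in AE17 and 11.23 and 11.97 in LLC. Against the order of the list, Perp stood at 4.99 and 6.84 in AE17 and 4.27 and 4.42 in LLC, and Sesn1 at 10.31 and 8.79 and 8.69 and 7.84. Cdkn2a, the locus of p16 and of the Mdm2 inhibitor p19Arf, lay outside the target list and stood at 6.57 and 6.59 in AE17 and 5.88 and 5.88 on the LLC arrays. Mdm4, the partner of Mdm2, had 9.09 and 8.26 against 10.07 and 10.47.

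**Figure D3:**
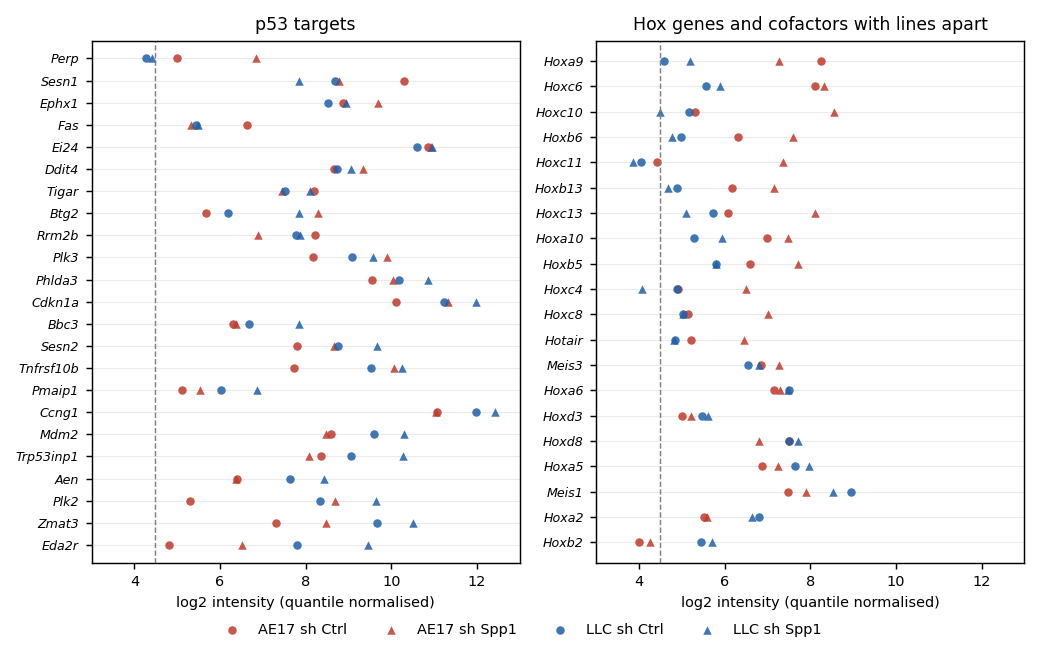
Log2 intensity of the 23 tested p53 targets and of the 20 Hox genes and cofactors whose lines did not overlap, ordered by the AE17 minus LLC difference (red AE17, blue LLC; circles sh Ctrl, triangles sh Spp1; dashed line the floor). Both blue points lie to the right of both red points for 10 of the 23 p53 targets, and Hox genes lie on both sides, from Hoxa9 for AE17 to Hoxb2 for LLC.

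Genes of growth leaned towards AE17 by smaller amounts. For DNA replication both AE17 arrays were above for 14 of 28 tested genes (50%) and below for 1 (3.57%), against 26.2% and 15.4% of all genes. The median difference was 0.53, with 0.34 in the sh Ctrl pair and 0.90 in the sh Spp1 pair. Rrm2, the small subunit of ribonucleotide reductase, had 10.75 and 10.63 in AE17 and 9.53 and 9.18 on the LLC arrays. The origin factors Cdc6 and Orc1 had 8.76 and 8.84 against 7.99 and 7.30 and 7.58 and 7.58 against 6.68 and 6.78. Within LLC the list was lower on the sh Spp1 array, by a median of -0.59 from the sh Ctrl array, as in Gins2 (9.75 and 9.40 in AE17 and 9.14 and 7.55 on the LLC arrays). Without the LLC sh Spp1 array the median difference was 0.19, and without the LLC sh Ctrl array 0.87.

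For mitosis 11 of 28 genes had both AE17 arrays above (39.3%) and 0 below, against 26.2% and 15.4% of all genes. The median difference was 0.36, with 0.46 in the sh Ctrl pair and 0.27 in the sh Spp1 pair. It was 0.09 without the AE17 sh Ctrl array, 0.65 without the AE17 sh Spp1 array and 0.18 without the LLC sh Spp1 array. Kif20a, a kinesin of cytokinesis, had 10.42 and 10.28 against 9.51 and 9.01, while Top2a (11.52 and 9.91 against 10.97 and 10.36) overlapped. Ribosomal protein genes had both AE17 arrays below for 14 of 29 (48.3%) and above for 2, by small amounts, with a median of -0.18. Rpl7 had 10.87 and 11.02 against 11.47 and 11.53. Centring the arrays on their medians put 3 ribosomal genes below (10.3%, against 9.68% of all genes) and 2 above, so that count rests on the scaling.

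Glycolysis and hypoxia genes had both AE17 arrays above for 20 of 33 (60.6%) and below for 2 (6.06%), against 26.2% and 15.4% of all genes. The median difference was 0.38, with 0.36 in the sh Ctrl pair and 0.41 in the sh Spp1 pair. Slc16a3, the lactate exporter, had the widest gap, with 9.22 and 9.81 in AE17 and 6.98 and 6.53 in LLC. The liver-type phosphofructokinase Pfkl had 9.92 and 10.01 against 8.38 and 8.62, and triosephosphate isomerase Tpi1 12.07 and 12.23 against 11.26 and 10.82. Vegfa, the angiogenic target of the hypoxia factors, was on the LLC side, with 9.40 and 9.67 against 10.27 and 10.57, as was hexokinase Hk2 (8.76 and 8.62 against 9.02 and 9.25). After median centring 11 of 33 were above (33.3%, against 21.3% of all genes) and 0 below.

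On the values as deposited the medians of replication, mitosis, glycolysis and ribosomal genes were -0.04, -0.20, -0.20 and -0.71, which relative to all genes is 0.52, 0.36, 0.36 and -0.16.

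Hox genes lay on both sides. Of 41 tested Hox genes and cofactors, 13 had both AE17 arrays above (31.7%) and 7 below (17.1%), close to the shares of all genes. Hoxc6 had 8.10 and 8.33 in AE17 and 5.57 and 5.89 in LLC, and Hoxa9 8.24 and 7.26 and 4.58 and 5.18. Hoxb6, Hoxb13 and Hoxa10 also had gaps over 1, at 1.34, 1.27 and 1.04. Hoxb2, from the anterior end of its cluster, stood at 4.0 and 4.26 in AE17, under the floor, and at 5.43 and 5.70 in LLC. Hoxa2, also anterior, had 5.52 and 5.58 against 6.80 and 6.65, and the cofactor Meis1 7.47 and 7.89 against 8.95 and 8.53. Posterior genes of the Hoxc cluster were high on the AE17 sh Spp1 array alone, such as Hoxc10 (5.31 and 8.55 against 5.16 and 4.49) and Hoxc11 (4.41 and 7.37 against 4.05 and 3.84).

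Imprinted genes included the widest gap of the comparison. The list as a whole had 7 of 36 tested members above in AE17 (19.4%) and 10 below (27.8%), against 26.2% and 15.4% of all genes. After Grb10 and Peg3 came the antisense RNA Kcnq1ot1, with 7.48 and 7.18 in AE17 and 8.79 and 8.45 in LLC. The maternally expressed Phlda2 was on the AE17 side, with 7.0 and 6.36 against 4.45 and 5.21. Igf2 was dim in both lines, with 6.05 and 5.55 against 5.44 and 5.44. Xist, the RNA that coats the inactive X chromosome, had 7.70 and 10.27 in AE17 and 11.98 and 11.83 on the LLC arrays, and differed by more within AE17 than within LLC.

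Matrix genes were split by the 2 AE17 arrays. Of 69 tested glycoproteins and proteoglycans 29 had both AE17 arrays above (42%) and 10 below (14.5%), against 26.2% and 15.4% of all genes. The median difference was 0.45. That median was 0.16 in the sh Ctrl pair and 0.45 in the sh Spp1 pair. Without the AE17 sh Spp1 array it was 0.18. Tgfbi, an adhesive matrix protein, was high on both AE17 arrays, with 10.24 and 10.80 against 7.88 and 7.65. Lox, the enzyme that crosslinks collagen, had 6.15 and 11.14 against 4.24 and 4.32, and collagen Col1a1 6.87 and 11.96 against 5.83 and 5.28; in both the AE17 sh Spp1 array lay far above the other 3. Col6a3 had the widest gap of the 40 tested collagens, of which 17 were above (42.5%) and 2 below, with 7.34 and 7.82 against 5.52 and 5.08. Fibronectin (Fn1) had 6.57 and 12.09 in AE17 and 12.51 and 12.74 in LLC, so that the AE17 sh Ctrl array alone was low, and its lines overlapped when arrays were centred on their medians. On the values as deposited Lox kept its order and Col1a1 did not.

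Of the matrix proteases and inhibitors 16 of 37 were above in AE17 (43.2%) and 1 below (2.7%), against 26.2% and 15.4% of all genes. The median difference was 0.49. It was 0.17 in the sh Ctrl pair and 0.83 in the sh Spp1 pair, and 0.17 without the AE17 sh Spp1 array. Adam19 had 7.01 and 7.21 against 5.43 and 4.98, the aggrecanase Adamts4 6.92 and 6.86 against 5.48 and 5.37, and the plasminogen activator Plat 9.13 and 9.38 against 8.10 and 6.79. The gelatinase Mmp2 was high on the AE17 sh Ctrl array alone, with 11.76 and 6.09 against 5.54 and 4.81. Among 18 tested integrins and other osteopontin receptors, Itgb3 had the widest gap, with 7.51 and 7.42 in AE17 and 5.11 and 5.24 in LLC, and Itga6 lay on the LLC side with 10.07 and 9.10 against 11.15 and 11.02. The count for this list was 4 above (22.2%) and 2 below (11.1%), against 26.2% and 15.4% of all genes.

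Other single genes with a known role stood out by the rule for naming genes. Slc7a11, the cystine importer that feeds glutathione synthesis, had 7.09 and 8.32 in AE17 and 10.64 and 10.42 in LLC. The glutathione transferases Gstt1 and Gstt3 had 8.82 and 9.36 against 6.72 and 6.72 and 7.64 and 7.32 against 4.92 and 4.97. The prostaglandin enzymes Ptges and Ptgs2 were both on the LLC side, at 6.48 and 6.64 against 9.48 and 9.05 and 10.65 and 9.36 against 11.67 and 12.59. Galectin 9 (Lgals9), a ligand of surface proteins on T cells, had 10.04 and 10.37 against 8.07 and 6.99. The chemokines Cxcl13 and Ccl5 had 7.41 and 7.07 against 5.64 and 5.61 and 7.17 and 9.54 against 5.76 and 5.49.

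**Figure D4:**
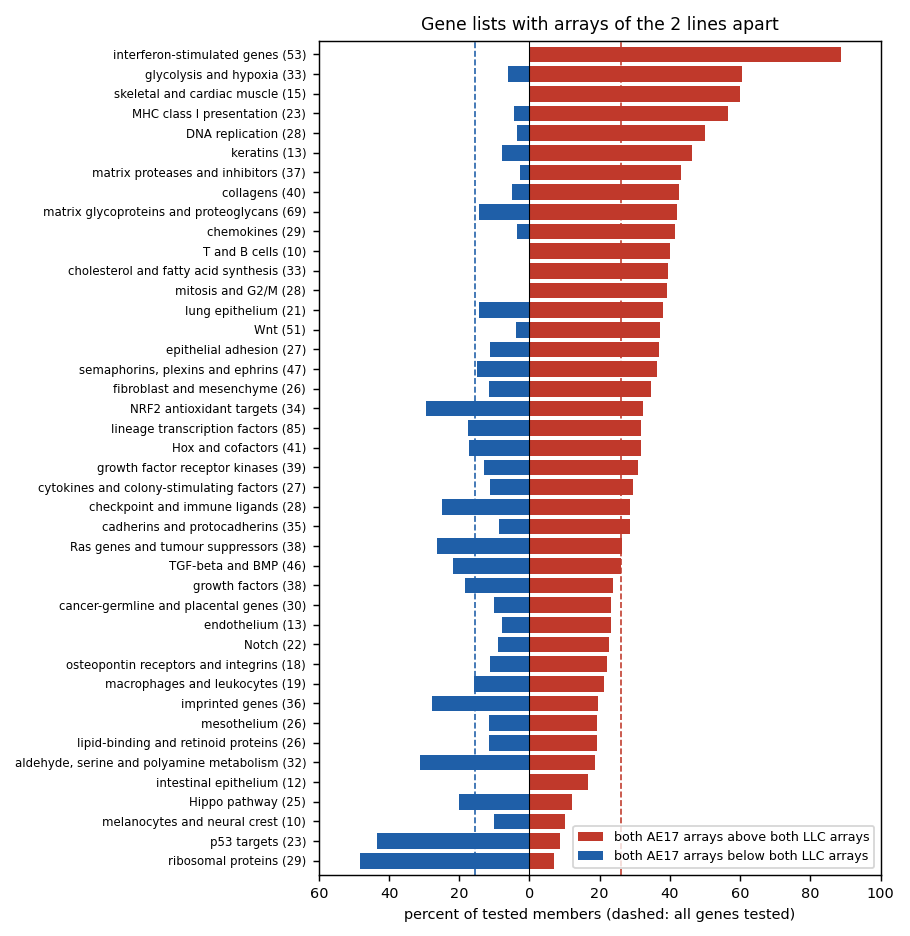
Percent of tested members with both AE17 arrays above both LLC arrays (red, to the right) or below them (blue, to the left), for lists with at least 10 tested members, with the number tested in brackets. Dashed lines mark the shares of all genes tested, 26.2% and 15.4%; interferon-stimulated genes reach 88.7% on the right, and ribosomal proteins and p53 targets 48.3% and 43.5% on the left.

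The labels of the 2 lines were set against markers of their tissues. Of 29 mesothelial markers 26 were tested. Both AE17 arrays were above for 5 (19.2%) and below for 3 (11.5%), against 26.2% and 15.4% of all genes. On each array 7 to 9 of the 26 lay at least 2 units above the floor. Some markers were dim in both lines: mesothelin (Msln) had 5.13 and 5.34 in AE17 and 5.01 and 4.49 in LLC, Wt1 5.83 and 5.64 and 5.23 and 5.67, and Upk3b 5.77 and 5.58 and 5.39 and 5.79. Bnc1 (6.62 and 5.41 in AE17, 8.15 and 6.47 in LLC) and Gata4 (7.15 and 8.16, 6.85 and 7.71) were brighter, and their lines overlapped. Calb2, Muc16 and Gpm6a were dimmer than the floor on average. Podoplanin (Pdpn), which mesothelium shares with other cells, was on the AE17 side, with 6.99 and 9.75 against 5.30 and 4.50. Krt18, Efemp1 and thrombomodulin (Thbd, 4.62 and 4.69 against 6.16 and 6.03) were on the LLC side. The mean log2 intensity of the list was 6.25 and 6.33 in AE17 and 6.44 and 6.30 in LLC.

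Lung epithelial markers lay on both sides, more of them on the AE17 side. Surfactant protein C (Sftpc) had 5.31 and 4.95 in AE17 and 4.60 and 4.62 in LLC, and the lung factor Nkx2-1 5.54 and 4.46 and 5.06 and 4.96. Of 21 tested lung markers both AE17 arrays were above for 8 (38.1%) and below for 3 (14.3%), against 26.2% and 15.4% of all genes. Napsa (6.37 and 5.62 against 4.93 and 4.70) had the largest difference towards AE17. Foxa1 (6.23 and 5.88 against 5.16 and 5.14) and Aqp5 (6.90 and 7.40 against 6.54 and 6.34) were also on the AE17 side. On the LLC side were Foxa2 (6.51 and 6.09 against 7.03 and 6.99), Sftpd (4.44 and 4.37, under the floor, against 4.66 and 5.02) and Ager (5.86 and 5.88 against 6.06 and 6.14). On each array 5 to 7 of the 21 lay at least 2 units above the floor. Epcam was dimmer than the floor on average, and E-cadherin (Cdh1) had 5.73 and 5.88 against 5.31 and 5.57. The mesenchymal filament vimentin (Vim) was bright on all arrays, with 13.34 and 13.23 against 13.09 and 12.75. The lines are therefore called by their names only.

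Most markers of leukocytes were dim. The macrophage and leukocyte list had 4 of 19 tested members above in AE17 (21.1%) and 3 below (15.8%), against 26.2% and 15.4% of all genes. Its mean log2 intensity was 5.46 and 5.29 in AE17 and 5.20 and 5.24 in LLC. Ptprc and Adgre1 were dimmer than the floor on average. The lysozyme gene Lyz2 was highest on the AE17 sh Ctrl array, with 7.50 and 5.12 in AE17 and 4.72 and 4.46 on the LLC arrays. The part of other cell types in the interferon and matrix values was not tested beyond these levels.

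**Figure D5:**
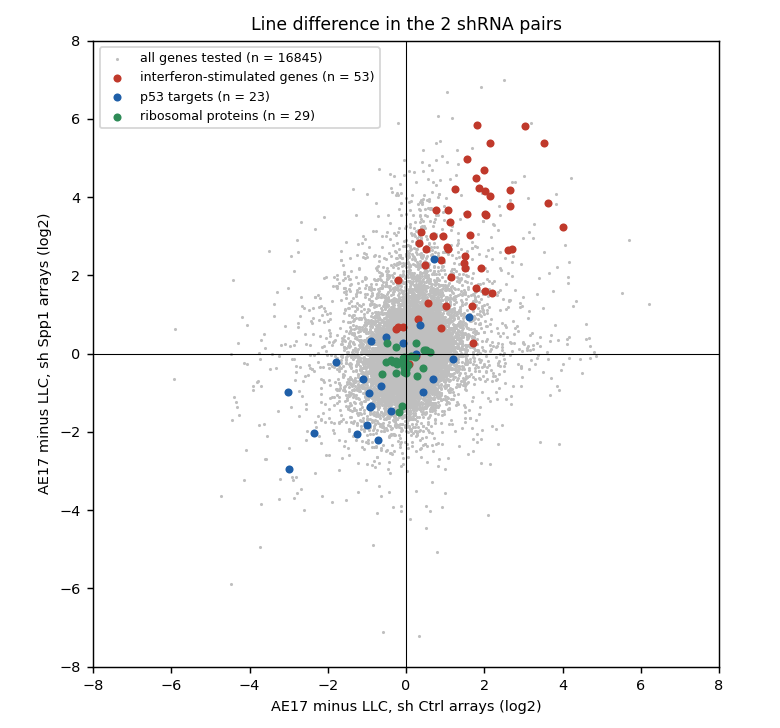
AE17 minus LLC in the sh Ctrl pair (horizontal axis) against the same difference in the sh Spp1 pair (vertical axis), in log2 units, 1 point per gene. Interferon-stimulated genes (red) lie above 0 in both pairs for most members, with medians of 1.50 and 2.74, p53 targets (blue) have medians of -0.71 and -0.82, and ribosomal proteins (green) lie near 0.

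The position of genes was not used to choose them. The share of genes with both AE17 arrays above ran from 18.2% on chromosome 17 to 34.5% on chromosome 4 among 20 chromosomes, and the share below from 9.44% on chromosome 4 to 22.1% on chromosome 13. Neighbouring tested genes on the same side formed runs of up to 9 genes. A run on chromosome 10 held Gstt3, Gstt1, Gstt4, Gstt2, Mif, Derl3, Smarcb1 and Mmp11, 8 genes higher in AE17 with a median difference of 0.97. The Gstt genes in it are related, so their probe sets may share signal and may not count as separate genes. On chromosome 17 a run of 7 genes from Chd1 to Riok2 was higher in LLC, with a median of -1.33, and on chromosome 13 a run of 9 from Arsk to A830082K12Rik, with a median of -0.85. DNA copy number was not analysed here.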

How the data were processed

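Total RNA of each culture was labelled and read on 1 array. The authors deposited linear intensity values per probe set, made with RMA per the submitters' processing notes and handled in GeneSpring GX 12.5 per the series' design text. The deposited array medians differed between arrays (64.2 and 37.2 in LLC, 36.3 and 26.6 in AE17), so log2 of the deposited values was quantile normalized over all 6 arrays. Of 41345 probe sets 23521 had 1 gene symbol, 1814 several and 16010 none. Probe sets with 1 symbol and a mean over the 4 arrays at or above the 30th percentile (17805) were kept, and the brightest per gene gave 16845 genes. The limma fit (limma 3.58.1, R 4.3.3) held line and shRNA label, with Benjamini-Hochberg adjustment at 0.05. The code was tried on simulated data with equal noise on all arrays and no shRNA effect. The real AE17 arrays differed more than the LLC arrays, so that trial does not show how the fit performs on these data. The spread covers these arrays only and may be technical. The array number limits precision.

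The members and lists were chosen with earlier results of these data known. Genes named were the 15 widest gaps per direction, up to 3 members per list and direction, and marker lists. Others were named after their values were seen. Promoter features were planned for genes on in 1 line only. These were few, so genes with a gap of at least 1 were used, a choice made after seeing the data. Promoters came from RefSeq (GRCm38.p6). The alternatives tried were other scalings, filters, probe set rules and left-out arrays. Fits with an array left out had no shRNA term. Python 3.11.15 with pandas 2.3.3 made counts.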

Additional observations from a re-analysis of the deposited data

Results flagged for a closer look

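Krt8, a keratin of simple epithelia, differed between AE17 and LLC in opposite directions in the 2 pairs of arrays. AE17 minus LLC was 2.20 in the sh Ctrl pair and -1.84 in the sh Spp1 pair. The difference between the pairs was not tested, since each pair holds 1 array per line.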

How the results depend on the processing

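With all 4 arrays limma called 0 genes in both directions under every scaling, filter, probe set rule and model tried, and the smallest adjusted p of these was 0.122, with all 6 arrays in one fit. Leaving out 1 array gave 0 to 1142 calls higher in AE17 and 0 to 526 higher in LLC. A gap of at least 1 held for 49 and 779 genes on the values as deposited, and for 326 to 1289 and 194 to 621 with 1 array left out. At a gap of 0.5 there were 839 and 481 genes, and at a gap of 2 there were 46 and 21. Genes on in AE17 alone numbered 1 as deposited, 1 with a pseudocount of 16, 8 at 1 unit above the floor, 1 at 3 units, and 5 to 46 with 1 array left out. Those on in LLC alone numbered 1 with the pseudocount, 1 with the 50th percentile filter, 1 at 3 units, and 2 to 10 with 1 array left out. Leaving out an array lets more genes be apart by construction, and the cause of the other shifts was not tested. Of the 267 genes that the naming rule gave, 234 had lines apart. None of the 234 reversed under the alternatives. Leaving out an array, changing the filter or fitting all 6 arrays could not reverse the order within a probe set, so those settings are no check of it. With the 50th percentile filter 189 of the 234 were still tested. Of the 234, 81 overlapped as deposited, 23 with median centring and 1 when probe sets were averaged per gene. Genes named outside the rule were not followed. The replicate number is the shRNA label, so the fit with that label as a covariate is already the analysis with the replicate block, paired by label. Without the block 0 genes were called in both directions. Depth is not defined for arrays, and a probe set under the floor gives only a bound.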

Other observations

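Cholesterol and fatty acid synthesis genes had both AE17 arrays above both LLC arrays for 13 of 33 tested members (39.4%) and below for 0. Their median difference was 0.00 in the sh Ctrl pair and 0.98 in the sh Spp1 pair, and over all 4 arrays 0.50. Without the AE17 sh Spp1 array it was 0.04, or -0.07 relative to all genes. Skeletal and cardiac muscle genes had 9 of 15 tested members above in AE17 (60%) and 0 below, with a median of 0.56, of 0.53 in the sh Ctrl pair and of 0.19 in the sh Spp1 pair. Without the AE17 sh Ctrl array that median was 0.19. Wnt pathway genes had 19 of 51 above (37.3%) and 2 below, and chemokines 12 of 29 above (41.4%) and 1 below. Targets of the antioxidant factor NRF2 lay on both sides, with 11 of 34 above (32.4%) and 10 below (29.4%). For all genes tested these shares were 26.2% and 15.4%.

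The 2 pairs of arrays disagreed in sign for 7084 genes (42.1%). Opposite differences of at least 1 in both pairs occurred for 178 genes, of which 30 belonged to the 1270 tested list members.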
